A study of Homo sapiens with 10 samples.

Results

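The unfolded protein response set described here holds 10 genes, matched by symbol among the 27142 genes of an RNA-seq table and named with earlier results of these data known. They are the stress sensors ATF6, ERN1 and EIF2AK3, the transcription factors ATF4 and DDIT3, the feedback genes PPP1R15A and TRIB3, and the genes HERPUD1, SEL1L and EDEM1 of the degradation route that clears misfolded proteins from the endoplasmic reticulum (ER). The samples compared were 2 libraries of 697 cells treated with TPA (12-O-tetradecanoylphorbol-13-acetate, a phorbol ester that activates protein kinase C) at 0.5 µg/ml and 2 libraries of control 697 cells. The 697 line is an established human pre-B leukaemia line, and all 4 libraries came from the parental line. The labels give the time in TPA as a range, 0 to 24 h, and no label says whether replicates were separate cultures, so the p-values speak of the spread among these libraries alone, and that spread may be technical. The other 6 samples of the series, ChIP-seq and input libraries, were not analysed here.

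When unfolded proteins build up in the ER, 3 membrane proteins respond. IRE1α (encoded by ERN1) splices the mRNA of the transcription factor XBP1, PERK (encoded by EIF2AK3) phosphorylates the initiation factor eIF2α, which slows translation but favours that of ATF4, and ATF6 moves to the Golgi, where its cleavage frees a transcription factor. In the B lineage this response is best known from plasma cells, where XBP1 is needed for bulk antibody secretion. A value per gene shows transcript level and does not show splicing of XBP1, phosphorylation of eIF2α or cleavage of ATF6.

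The unit is RPKM, a read number divided by transcript length and library size, so that levels of different genes can be compared per length. Summed RPKM lay between 349438 and 388846 over the 4 libraries, and between 11449 and 11878 genes reached 1 RPKM. The number of reads was not given. Judged by the median ratio of low RPKM values, the other 3 libraries were put at 91.8% to 97.9% of the depth of control replicate 1. The reads behind these values are not known, so differences in expression may enter the ratios. Only ratios to control replicate 1 within 0.1 of 1 were used, so a larger difference in depth could not have shown. Of 10 pre-B marker genes, 9 were at 1 RPKM or more in every library. MME, the gene of the antigen CD10, was the exception, at 0.09 ± 0.0099 RPKM with TPA and 8.19 ± 3.11 RPKM in control (values written with ± are means with their SD over 2 libraries). MME reached 1 RPKM in its control libraries alone, so a difference was built into its being tested. The summed level of the pre-B markers was 1200 and 1350 RPKM with TPA and 2100 and 2090 RPKM in control. Of the 10 markers, 7 fell, MME included. The part of this shift in the results was not tested, and in bulk RNA fewer cells of a type cannot be told apart from less RNA per cell. All 6 T-cell markers and all 5 erythroid markers were under 1 RPKM in every library, with CD3D, CD3E, HBB and HBG1 listed at 0. Of 6 myeloid markers, 5 were under 1 RPKM in every library and FCN1 was listed at 0. CSF1R was the exception, at 3.29 ± 0.515 RPKM with TPA and 0.627 ± 0.112 RPKM in control.

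TPA-treated cells had more transcript of the sensor genes EIF2AK3 (PERK), which was 6.66-fold higher, and ATF6, which was 1.72-fold higher. The stress-induced genes PPP1R15A and DDIT3 were also higher, by 2.82-fold and 1.89-fold, while ATF4, whose protein is known to induce both, was 1.43-fold lower. The degradation gene EDEM1 was 4.77-fold lower. HERPUD1 rose by less, and SEL1L did not pass. Genes were tested with limma on log2(RPKM + 1), a scale on which the change of low genes is understated, and were called at a Benjamini-Hochberg adjusted p under 0.05 over the 12159 genes that reached 1 RPKM in 2 or more libraries. Of the 10 members, 6 rose, 2 fell, 1 did not pass and 1, TRIB3, was too low to be tested. The 6 include ERN1, which was low, near the threshold (adjusted p = 0.0492) and tested because of its TPA values, so its call supports little. Among all genes tested 58.2% were called, 28.4% as risen and 29.8% as fallen, so the count of members called stands against a background in which most genes changed. In 9 of the 10 members the TPA and control values were separate, as they were in 79.8% of all genes tested. The median log2 fold change was 0.49 for the 9 members tested and -0.02 for all genes tested.

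**Figure D1:**
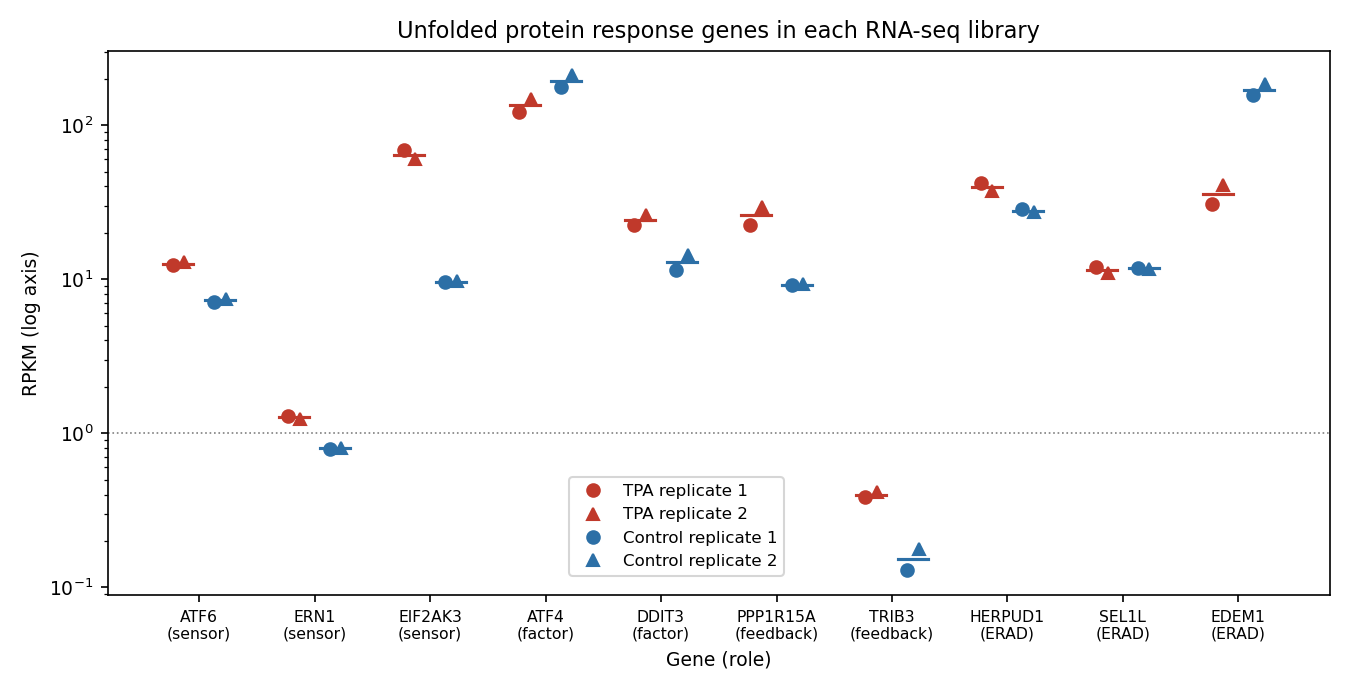
RPKM (log axis) of the 10 genes in each library, with TPA in red to the left of control in blue, a circle for replicate 1, a triangle for replicate 2 and a line at the group mean. The dotted line marks 1 RPKM. EIF2AK3 stands at 60.0 and 68.7 RPKM with TPA against 9.62 and 9.70 RPKM in control, and EDEM1 at 30.8 and 40.6 RPKM with TPA against 157 and 184 RPKM in control.

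The order of the genes by level differed between the groups. With TPA the order ran from ATF4 at 135 RPKM through EIF2AK3 at 64.4, HERPUD1 at 39.6, EDEM1 at 35.7, PPP1R15A at 26.0, DDIT3 at 24.4, ATF6 at 12.6, SEL1L at 11.5 and ERN1 at 1.27 to TRIB3 at 0.399 RPKM. In control it ran from ATF4 at 193 RPKM through EDEM1 at 170, HERPUD1 at 27.9, DDIT3 at 12.9, SEL1L at 11.8, EIF2AK3 at 9.66, PPP1R15A at 9.23, ATF6 at 7.32 and ERN1 at 0.797 to TRIB3 at 0.153 RPKM. EIF2AK3 thus stood 2nd with TPA and 6th in control, and EDEM1 4th with TPA and 2nd in control. Some neighbours in these orders overlapped between libraries: HERPUD1 with EDEM1 and PPP1R15A with DDIT3 under TPA, and ATF4 with EDEM1 and DDIT3 with SEL1L in control. Among all genes tested, the mean of EIF2AK3 was above that of 92.5% of genes with TPA and of 48.4% in control.

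The RefSeq promoters of 3 members are given for the extremes of the set and for a known stress element. EIF2AK3 had the largest rise of the 10 genes, EDEM1 the largest fall, and HERPUD1 carries the ERSE-II element, to which ATF6 and XBP1 are known to bind. Each window runs from 250 bases before to 50 bases after the start in the RefSeq table (build GRCh38.p14, whereas the expression table was made on hg19) and is written 5′ to 3′ on the strand of the gene, with every motif match in capitals.
EIF2AK3, chr2:88627415-88627714, minus strand: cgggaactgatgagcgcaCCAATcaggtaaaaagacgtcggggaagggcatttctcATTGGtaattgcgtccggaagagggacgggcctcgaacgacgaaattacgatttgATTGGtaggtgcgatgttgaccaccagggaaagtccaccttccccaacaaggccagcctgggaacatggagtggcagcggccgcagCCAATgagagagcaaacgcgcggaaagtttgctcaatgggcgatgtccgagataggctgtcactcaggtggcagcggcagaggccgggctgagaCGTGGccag
EDEM1, chr3:5187457-5187756, plus strand: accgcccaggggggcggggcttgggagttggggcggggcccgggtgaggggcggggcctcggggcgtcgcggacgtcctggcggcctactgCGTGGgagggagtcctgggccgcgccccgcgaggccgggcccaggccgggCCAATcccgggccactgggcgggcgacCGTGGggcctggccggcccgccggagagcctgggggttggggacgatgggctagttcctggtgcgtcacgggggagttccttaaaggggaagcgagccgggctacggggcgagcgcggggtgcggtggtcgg
HERPUD1, chr16:56931892-56932191, plus strand: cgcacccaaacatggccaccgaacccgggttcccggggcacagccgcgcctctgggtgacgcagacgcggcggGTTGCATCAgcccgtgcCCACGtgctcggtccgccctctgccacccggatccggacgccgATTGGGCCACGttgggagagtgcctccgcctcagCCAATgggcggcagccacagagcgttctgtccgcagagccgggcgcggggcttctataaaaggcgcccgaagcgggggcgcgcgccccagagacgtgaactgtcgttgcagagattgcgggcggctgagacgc

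All 10 members matched a promoter in the table, and a member was counted where any of its listed starts held a match. The motifs, searched on both strands, were the ER stress element ERSE (CCAAT, then 9 bases, then CCACG), ERSE-II (ATTGG, then 1 base, then CCACG), the XBP1 element UPRE (TGACGTGG), the C/EBP-ATF element (TGATGNAAN) that ATF4 binds, and, alone, the outer letters of ERSE, here called the CCAAT box and the CCACG box. Read on the other strand, an ERSE-II match also counts as a match of each box. HERPUD1 was the 1 member with an ERSE-II match, which 0.0541% of the 35116 promoters held, and the 1 member with a C/EBP-ATF match, which 3.61% held. No member held the full ERSE or UPRE letters in this window, against 0.0769% and 0.729% of promoters. Only exact letters were searched. In DDIT3 and HERPUD1 a CCAAT box is followed, after 9 bases, by CCACT and CCACA, each 1 letter from the ERSE letters. SEL1L, which did not pass, also holds a variant 1 letter from ERSE, and DDIT3 holds another on its other strand. How many promoters hold such a variant was not counted. The CCAAT box was present in 6 members and in 34.6% of promoters, and the CCACG box in 7 members and in 38.1% of promoters. The EIF2AK3 window holds 4 CCAAT boxes, a number reached by 0.991% of promoters, and that of SEL1L holds 5, a number reached by 0.359%. These are matches of letters and not measured sites.

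Among the sensors, the PERK gene moved most. EIF2AK3 (2p11.2) had 68.7 and 60.0 RPKM in the TPA libraries, against 9.62 and 9.70 RPKM in the control libraries, which gave 2.61 on the log2 scale with an SE of 0.136 and an adjusted p of 2.52e-06. Both TPA libraries were far above both controls, and 262 of the 12159 genes tested had a larger rise. ATF6 (1q23.3) had 12.3 and 12.9 RPKM with TPA, against 7.15 and 7.49 RPKM in control, which gave 0.71 on the log2 scale with an SE of 0.128 and an adjusted p of 0.0019. The ATF6 replicates lay close together in each group and the groups did not overlap. ERN1 (17q23.3) had 1.30 and 1.23 RPKM with TPA, against 0.791 and 0.803 RPKM in control, which gave 0.33 on the log2 scale with an SE of 0.125 and an adjusted p of 0.0492. ERN1 passed the filter on low values through its TPA libraries alone, so a difference was built into its being tested. Its mean was above that of 5.8% of genes tested with TPA and of 4.8% in control, and its adjusted p was 0.511 after quantile normalization, 0.0517 without a variance trend, and 0.212 and 0.205 without control replicates 1 and 2, where the log2 fold change was 0.33 and 0.34.

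The balance between the sensors was read as ratios within a library, which do not depend on scaling between libraries. ERN1 transcript was 0.0189 and 0.0205 of EIF2AK3 transcript with TPA, and 0.0822 and 0.0828 in control. ATF6 transcript was 0.179 and 0.215 of that of EIF2AK3 with TPA, and 0.743 and 0.772 in control. In control cells ATF6 and EIF2AK3 were thus of similar level, and with TPA EIF2AK3 was ahead of both other sensors by more than in control in each library. With 2 libraries per group the smallest two-sided p of an exact permutation test is 0.333, so these ratios are given with no test.

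**Figure D2:**
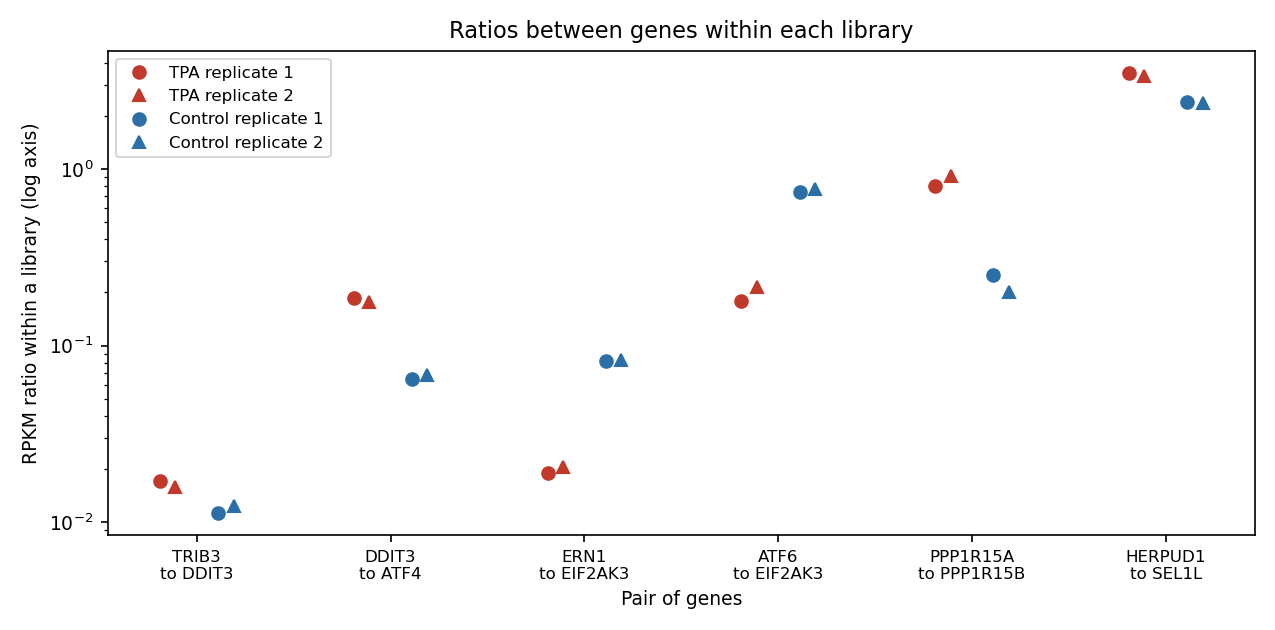
Ratio of RPKM between the genes of 6 pairs within each library (log axis), with TPA in red to the left of control in blue, a circle for replicate 1 and a triangle for replicate 2. The ratios of ERN1 and ATF6 to EIF2AK3 are lower in both TPA libraries, and the ratios of DDIT3 to ATF4 and of PPP1R15A to PPP1R15B are higher.

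The 2 transcription factors of the PERK arm went opposite ways. ATF4 (22q13.1), the factor made when eIF2α is phosphorylated, had 121 and 148 RPKM with TPA, against 176 and 210 RPKM in control, which gave -0.52 on the log2 scale with an SE of 0.161 and an adjusted p of 0.0245. The groups did not overlap, but replicate 2 was the higher one in both, and the call was lost without TPA replicate 1 (adjusted p = 0.115), without control replicate 2 (0.219) and with no filter on low values (0.0804). DDIT3 (12q13.3), which encodes the stress factor CHOP, had 22.6 and 26.2 RPKM with TPA, against 11.4 and 14.3 RPKM in control, which gave 0.87 on the log2 scale with an SE of 0.157 and an adjusted p of 0.00187. DDIT3 was higher in both TPA libraries than in either control. Per unit of ATF4 transcript, DDIT3 stood at 0.186 and 0.177 with TPA and at 0.065 and 0.0682 in control, a mean ratio 2.72 times that of control. In RefSeq DDIT3 overlaps MARS1, listed as MARS, which fell to 50.5 ± 0.164 RPKM with TPA, against 82.6 ± 13.9 RPKM in control (log2 fold change -0.69, adjusted p = 0.00563). Whether the counting used strand is not given in the sources used here, so reads of the overlap cannot be told apart. The same holds for EIF2AK3, which overlaps the noncoding RNA genes EIF2AK3-AS1 and EIF2AK3-DT. It also holds for ATF6, which overlaps a noncoding RNA gene and a pseudogene. The genes that overlap EIF2AK3 and ATF6 had no RPKM value here.

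Feedback genes act downstream of ATF4 and DDIT3. PPP1R15A (19q13.33), whose product GADD34 brings protein phosphatase 1 to eIF2α and so restores translation, had 22.6 and 29.4 RPKM with TPA, against 9.18 and 9.28 RPKM in control, which gave 1.39 on the log2 scale with an SE of 0.156 and an adjusted p of 1.51e-04. The control libraries agreed closely, and both TPA libraries were well above them. Its constitutive relative PPP1R15B, which serves the same phosphatase, had 28.4 and 32.4 RPKM with TPA, against 36.6 and 45.9 RPKM in control (log2 fold change -0.42, adjusted p = 0.0485). The ratio of PPP1R15A to PPP1R15B was 0.796 and 0.907 with TPA and 0.251 and 0.202 in control. The fall of PPP1R15B did not hold after quantile normalization (adjusted p = 0.0644), nor without TPA replicate 1 (0.178), TPA replicate 2 (0.0587) or control replicate 2 (0.414).

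TRIB3 (20p13), a pseudokinase gene that DDIT3 and ATF4 induce and that dampens their action, was barely present. It had 0.385 and 0.413 RPKM with TPA, against 0.129 and 0.177 RPKM in control, and stayed below the filter on low values. The groups did not overlap, and with no filter, where 36.0% of 20115 genes were called, TRIB3 had a log2 fold change of 0.28 (adjusted p = 0.00961). Set against DDIT3, TRIB3 transcript was 0.0171 and 0.0158 with TPA and 0.0113 and 0.0123 in control.

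The 3 genes of ER-associated degradation split. EDEM1 (3p26.1), a mannosidase-like protein that directs misfolded glycoproteins to degradation and a known XBP1 target, had 30.8 and 40.6 RPKM with TPA, against 157 and 184 RPKM in control, which gave -2.23 on the log2 scale with an SE of 0.171 and an adjusted p of 1.86e-05. Both TPA libraries were far below both controls, and 296 genes of all those tested fell by more. HERPUD1 (16q13), an ER membrane protein that helps assemble the degradation complex, had 42.1 and 37.2 RPKM with TPA, against 28.4 and 27.4 RPKM in control, which gave 0.49 on the log2 scale with an SE of 0.135 and an adjusted p of 0.0151. The HERPUD1 groups did not overlap, but the call was lost without TPA replicate 1 (adjusted p = 0.0574), control replicate 1 (0.0805) or control replicate 2 (0.121), with log2 fold changes of 0.40, 0.51 and 0.46. SEL1L (14q31.1), the scaffold of the same complex, had 12.0 and 11.0 RPKM with TPA, against 11.9 and 11.6 RPKM in control. Its log2 fold change of -0.03 had a 95% interval of -0.33 to 0.27 (adjusted p = 0.866), and its groups overlapped. HERPUD1 transcript was 3.50 and 3.37 times that of SEL1L with TPA and 2.39 and 2.36 times in control.

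**Figure D3:**
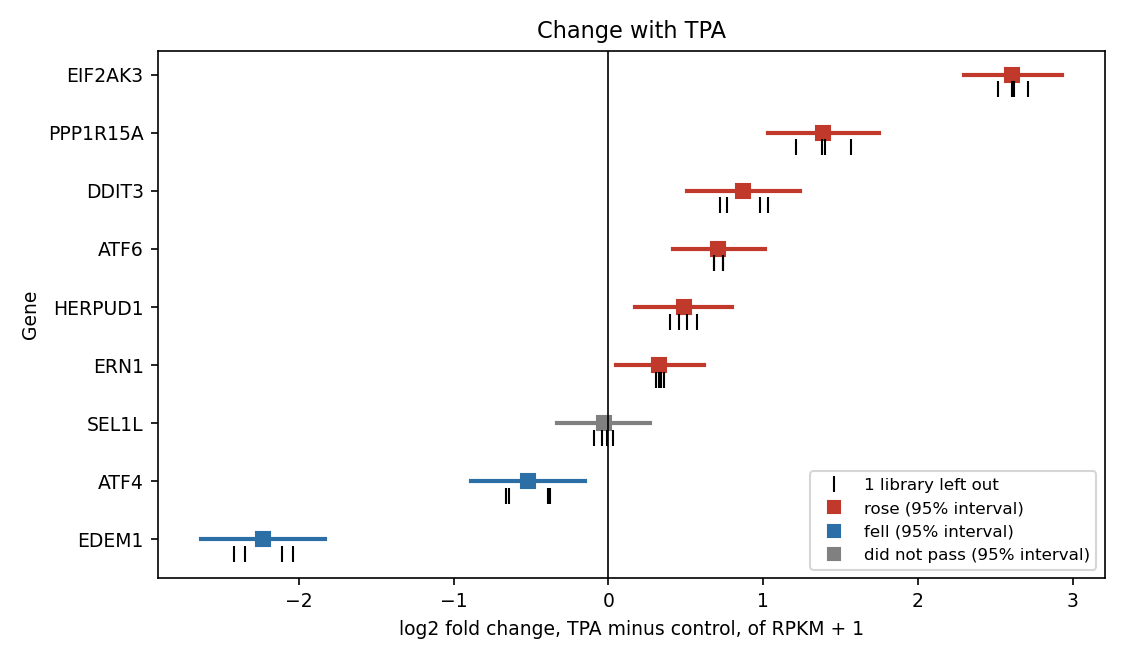
Log2 fold change (TPA minus control, of RPKM + 1) of the 9 genes tested, with the 95% interval from limma as a bar and the values with 1 library left out as ticks below it. EIF2AK3 at 2.61 and EDEM1 at -2.23 are the extremes, and SEL1L at -0.03 lies on the line of no change.

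The surroundings of these genes were read from 7 lists that together hold 133 other genes, of which 125 were tested. Over all of these 34 rose, 35 fell and 56 did not pass, so 55.2% were called against 58.2% of all genes tested, with a median log2 fold change of -0.02 in both. From each list the genes named are those with the largest changes called, with a few fixed partners.

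The list of ATF4 target genes leaves out the members DDIT3 and PPP1R15A, which rose, and TRIB3, which was not tested. In the list 13 of the 24 tested were lower, while 4 rose and 7 did not pass. Thus 70.8% were called against 58.2% of all genes, with a median log2 fold change of -0.68 against -0.02 for all genes. The number that rose was 2 with no filter on low values and 2 without TPA replicate 2, control replicate 1 or control replicate 2. The serine synthesis genes PHGDH and PSAT1 fell most. PHGDH had 20.7 and 23.1 RPKM with TPA, against 185 and 196 RPKM in control, a log2 fold change of -3.07 (adjusted p = 1.18e-06). PSAT1 had 17.2 ± 4.69 RPKM with TPA and 79.0 ± 12.0 RPKM in control (log2 fold change -2.15, adjusted p = 5.34e-05). ATF3, a stress-induced transcription factor gene, fell to 1.38 ± 0.342 RPKM with TPA, against 3.95 ± 1.02 RPKM in control. Among the 4 that rose were SESN2 and DDIT4, whose products restrain the growth kinase mTORC1. SESN2 had 5.27 ± 0.952 RPKM with TPA and 2.94 ± 0.279 RPKM in control. DDIT4 had 115 and 111 RPKM with TPA, against 72.0 and 20.4 RPKM in control. The DDIT4 controls stood far apart, and its call was lost without TPA replicate 1 (adjusted p = 0.11) or TPA replicate 2 (0.0995). The asparagine synthetase gene ASNS did not pass (5.73 ± 1.11 RPKM with TPA, 7.19 ± 3.22 RPKM in control, adjusted p = 0.46, but 0.0172 without control replicate 1). The glutathione-degrading gene CHAC1, a target of ATF4 and CHOP, stayed below the filter at 0.291 ± 0.0721 RPKM with TPA and 0.515 ± 0.0269 RPKM in control.

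**Figure D4:**
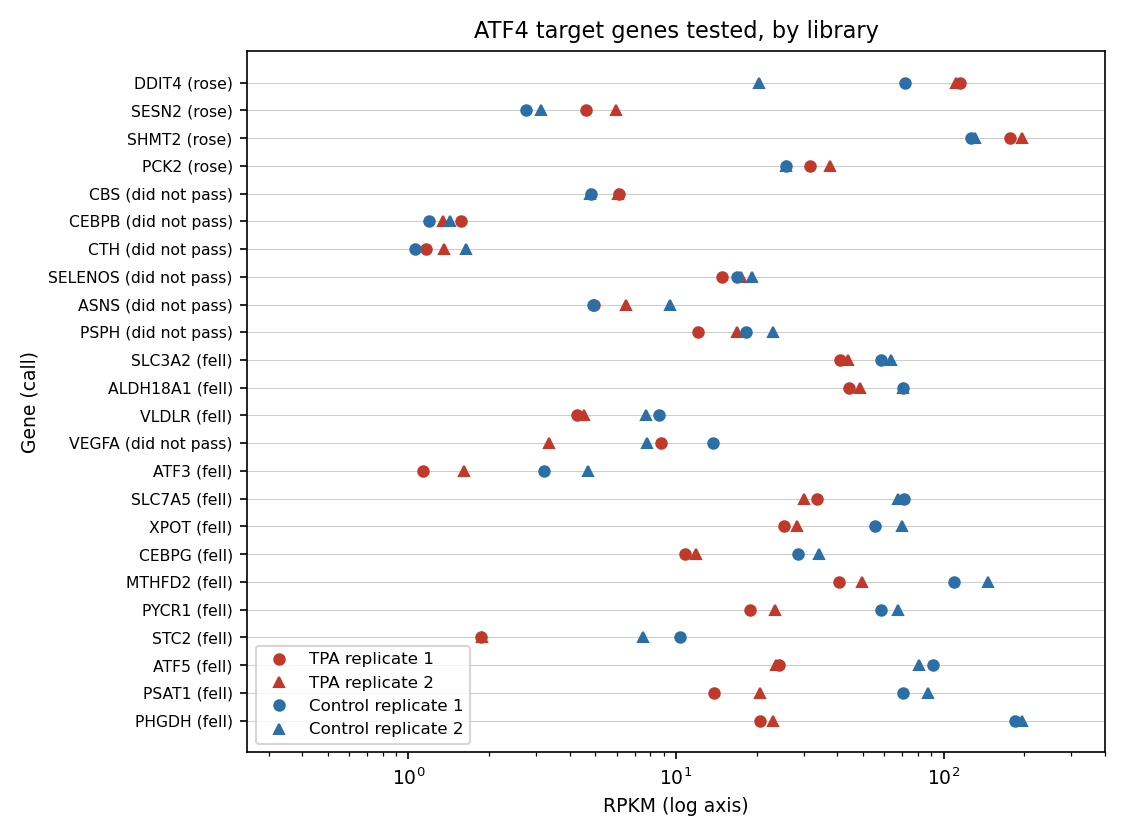
RPKM (log axis) of the 24 tested ATF4 target genes in each library, TPA in red and control in blue, a circle for replicate 1 and a triangle for replicate 2, ordered by log2 fold change. PHGDH, at the bottom, has 20.7 and 23.1 RPKM with TPA against 185 and 196 RPKM in control, and 13 of the 24 genes fell.

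Genes around eIF2α, the target of PERK, were called about as often as all genes, 58.8% against 58.2%. Of 17 genes of eIF2α kinases other than PERK, phosphatase subunits, eIF2 and its exchange factor eIF2B, 7 fell, 3 rose and 7 did not pass, with a median log2 fold change of -0.26. None rose without TPA replicate 2 or control replicate 1, and without control replicate 2 there were 1 that rose and 4 that fell. EIF2B3, a subunit of eIF2B, fell to 15.3 ± 1.32 RPKM with TPA, against 31.1 ± 5.31 RPKM in control. PPP1CC, a catalytic subunit of protein phosphatase 1, fell to 98.9 ± 6.60 RPKM with TPA, against 167 ± 17.5 RPKM in control. The adaptor gene NCK1 rose to 13.9 ± 0.951 RPKM with TPA, against 9.09 ± 1.81 RPKM in control, and the eIF2B subunit gene EIF2B2 to 28.8 ± 2.01 RPKM with TPA, against 21.2 ± 0.991 RPKM in control. The rise of NCK1 was lost without TPA replicate 2 (adjusted p = 0.0748) or control replicate 1 (0.184), and that of EIF2B2 without TPA replicate 2 (0.0819), control replicate 1 (0.203) or control replicate 2 (0.109). DNAJC3, an inhibitor of these kinases, did not pass (15.1 ± 2.15 RPKM with TPA, 14.1 ± 0.40 RPKM in control).

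In the IRE1 arm, the transcription factor gene XBP1 fell. It had 61.8 and 72.7 RPKM with TPA, against 124 and 107 RPKM in control, which gave -0.77 on the log2 scale with an SE of 0.151 and an adjusted p of 0.00286. Both TPA libraries were below both controls. Of 21 genes of the arm tested, 3 rose, 4 fell and 14 did not pass, with a median of 0.01. The share called was 33.3%, against 58.2% of all genes tested. TRAF2, which links activated IRE1α to kinase signalling, fell to 7.42 ± 0.682 RPKM with TPA, against 17.2 ± 1.29 RPKM in control. BLOC1S1, an mRNA that IRE1α is known to cut, fell to 25.0 ± 2.37 RPKM with TPA, against 44.7 ± 3.89 RPKM in control. SSR2, a subunit of the translocon-associated complex, rose to 172 ± 27.7 RPKM with TPA, against 113 ± 0.943 RPKM in control, and the stress kinase gene MAPK8 to a mean of 12.6 RPKM with TPA, against 8.26 RPKM in control. The MAPK8 call was lost without TPA replicate 2 (adjusted p = 0.0627) or control replicate 1 (0.13), and the SSR2 call without control replicate 2 (0.0551). The number that rose was 5 after quantile normalization and 1 without TPA replicate 2, control replicate 1 or control replicate 2.

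In the list of ATF6 relatives, their processing proteases and related factors, 63.6% were called, near the 58.2% of all genes. The balance of directions depended on the setting. Neither protease gene passed, MBTPS1 with an adjusted p of 0.997 and MBTPS2 with 0.0697. The 11 tested held 5 that rose, 2 that fell and 4 that did not pass, with a median of 0.31. The number that rose was 1 with no filter on low values, 3 with a filter at 5 RPKM, 2 without TPA replicate 2 (when 2 fell) or control replicate 2 and 3 without control replicate 1, and the number that fell was 0 without TPA replicate 1 and 1 without control replicate 2 or with no filter. CREB3, an ER-anchored factor of the same kind, rose to 21.9 ± 0.0269 RPKM with TPA, against 8.79 ± 0.501 RPKM in control (log2 fold change 1.23, adjusted p = 1.04e-04). CREB3L4 rose too, with 15.9 and 26.7 RPKM with TPA and 11.6 and 11.3 RPKM in control, so that its TPA libraries stood apart. The ATF6 partners NFYB and YY1 fell, NFYB to 11.8 ± 2.54 RPKM with TPA, against 19.8 ± 2.87 RPKM in control, and YY1 to 30.5 ± 3.45 RPKM with TPA, against 45.1 ± 3.52 RPKM in control. The NFYB call was lost without TPA replicate 1 (adjusted p = 0.0557), and the YY1 call without TPA replicate 1 (0.054) or control replicate 2 (0.111). ATF6B, the closest relative of ATF6, had 1.37 and 1.66 RPKM with TPA, against 0.889 and 1.02 RPKM in control (adjusted p = 0.0478). The ATF6B call was lost after quantile normalization (0.268) and without TPA replicate 2 (0.0811), control replicate 1 (0.248) or control replicate 2 (0.118). ATF6B lies in 6p21.32, where values may be too low: a mean of 1 RPKM was reached by 11 of the 129 protein-coding genes in that band and 6p21.33, and by 27 of the 45 in 6p21.31.

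Of the ER chaperones and folding enzymes 40.9% were called, against 58.2% of all genes, and the number called depended on the scaling. The 22 tested held 7 that rose, 2 that fell and 13 that did not pass, with a median of 0.28 against -0.02 for all genes, but 1 to 6 rose with 1 library left out (1 without control replicate 1, 2 without TPA replicate 2, 3 without control replicate 2), 1 fell without TPA replicate 1 or control replicate 2, 12 rose after median-of-ratios scaling and 14 after quantile normalization. HSPA5, the gene of the chaperone BiP that holds the sensors inactive, had 173 and 162 RPKM with TPA, against 135 and 137 RPKM in control. HSPA5 did not pass (log2 fold change 0.30, adjusted p = 0.081) but passed after median-of-ratios scaling (0.0365) and quantile normalization (0.0131). SIL1, an exchange factor for BiP, rose to 17.9 ± 1.71 RPKM with TPA, against 4.68 ± 0.499 RPKM in control (log2 fold change 1.74, adjusted p = 2.61e-05). CNPY2 rose to 41.0 ± 7.67 RPKM with TPA, against 27.3 ± 0.383 RPKM in control, a call lost without TPA replicate 2 (adjusted p = 0.0696) or control replicate 1 (0.0625). SDF2L1, a BiP cofactor gene, fell to 15.1 ± 1.65 RPKM with TPA, against 31.0 ± 2.28 RPKM in control. The oxidase gene ERO1A fell to 12.2 ± 2.09 RPKM with TPA, against 18.4 ± 1.0 RPKM in control, a call lost without TPA replicate 1 (adjusted p = 0.0608) or control replicate 2 (0.0743).

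Other genes of ER-associated degradation also split. Among 22 such genes tested, 7 were called higher, 3 lower and 12 did not pass, with a median of 0.00. Calls thus covered 45.5% of the list, against 58.2% of all genes tested. Without control replicate 1 there were 4 called higher. DERL3, a channel component known as an XBP1 target, had 0.308 and 0.550 RPKM with TPA, against 8.88 and 7.60 RPKM in control, a log2 fold change of -2.69 (adjusted p = 3.30e-06), and passed the filter on low values through its control libraries alone. SYVN1, the ubiquitin ligase that SEL1L holds, fell to 37.3 ± 0.416 RPKM with TPA, against 59.5 ± 11.1 RPKM in control, a call lost without control replicate 1 (adjusted p = 0.123). UFD1L, a cofactor of the extracting ATPase, fell to 12.0 ± 0.339 RPKM with TPA, against 25.2 ± 1.51 RPKM in control. MAN1B1, a mannosidase that marks glycoproteins for the route, rose to 19.2 ± 2.54 RPKM with TPA, against 8.80 ± 0.443 RPKM in control. OS9, a lectin of the SEL1L complex, rose to 49.4 ± 5.35 RPKM with TPA, against 25.9 ± 2.82 RPKM in control.

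Genes that carry ER stress to cell death moved in both directions. Among 11 such genes tested there were 5 that rose, 5 that fell and 1 that did not pass, with a median of 0.26. Thus 90.9% were called, against 58.2% of all genes tested. The number that fell was 2 without TPA replicate 1 and 3 without control replicate 2. The pro-death gene BCL2L11 (BIM) rose to 52.5 ± 12.3 RPKM with TPA, against 16.4 ± 0.686 RPKM in control (log2 fold change 1.60, adjusted p = 1.32e-04). BBC3 (PUMA) rose to 10.4 ± 2.61 RPKM with TPA, against 3.81 ± 1.03 RPKM in control. The survival gene BCL2 fell to 8.88 ± 1.46 RPKM with TPA, against 22.7 ± 0.175 RPKM in control. PMAIP1 (NOXA), a pro-death gene, fell to 12.9 ± 0.253 RPKM with TPA, against 26.3 ± 5.38 RPKM in control.

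**Figure D5:**
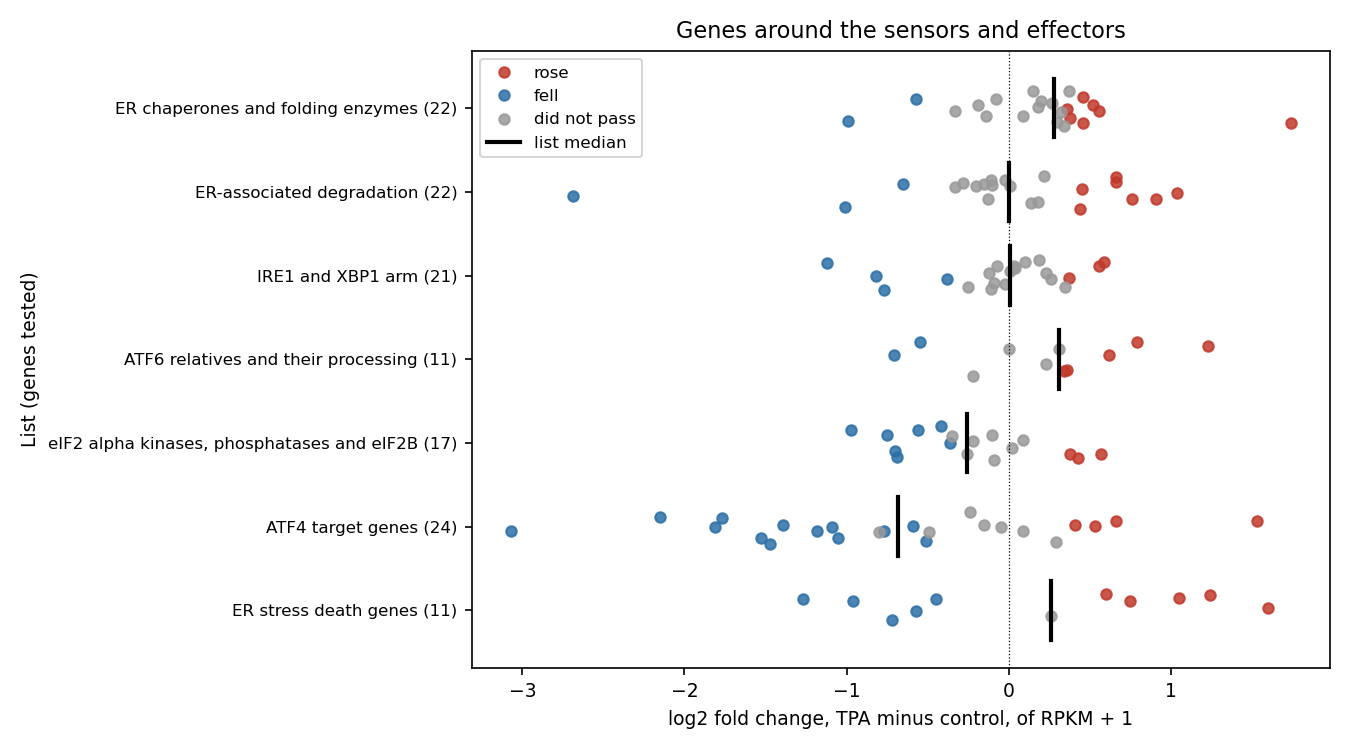
Log2 fold change (TPA minus control, of RPKM + 1) of each tested gene in the 7 lists, red for genes that rose, blue for genes that fell and grey for genes that did not pass, with the list median as a black bar. The ATF4 target genes have the lowest median, -0.68, and the medians of the degradation and IRE1 lists lie at 0.00 and 0.01.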

How the data were processed

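RNA of 697 cells was measured in 2 TPA and 2 control libraries, grouped and numbered by their titles. Values deposited by the authors are RPKM, 1 per gene and library, per the file headers. CASAVA 1.8, Bowtie 1.12, TopHat, SAMtools and HOMER and build hg19 are named in the submitters' processing notes, without their roles. Strand use and the handling of multi-mapping reads are not given in the sources used here. The read number is not given, so no counting interval could be set.

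RPKM values are not counts, so log2(RPKM + 1) was fitted with limma 3.58.1 in R 4.3.3 (TPA minus control, empirical Bayes with a trend, two-sided, Benjamini-Hochberg adjustment over 12159 genes). The fit was also run on simulated data with independent libraries and few changed genes. That setting is unlike these data, so the run does not vouch for the calls here. Relative depth was the median ratio to control replicate 1 over genes between 0.03 and 0.15 RPKM, with ratios more than 0.1 from 1 left out. Sequences came from RefSeq (GRCh38.p14). Genes named were all members, the 2 largest called rises and falls of each list, and 9 fixed partners (XBP1, HSPA5, ATF6B, PPP1R15B, SYVN1, ATF3, CHAC1, ASNS and DNAJC3). Members and lists were chosen with earlier results of these data known. Of the markers, those named were the exceptions and those listed at 0, chosen after their values were seen. The planned comparison of protein sequences was not made, since no protein table was used here. The alternatives were other pseudocounts, filters, scalings and thresholds, no trend, a replicate block and each library left out.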

Additional observations from a re-analysis of the deposited data

How the results depend on the processing

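Across 13 alternatives EIF2AK3, PPP1R15A, DDIT3, ATF6 and EDEM1 kept their direction and call in each one. With 1 library left out the log2 fold change ranged from 2.52 to 2.71 for EIF2AK3, from 1.21 to 1.57 for PPP1R15A, from 0.72 to 1.03 for DDIT3, from 0.68 to 0.74 for ATF6 and from -2.42 to -2.04 for EDEM1. ATF4 and HERPUD1 each lost their call in 4 alternatives and ERN1 in 5, with no change of direction; ERN1 was not tested with a filter at 5 RPKM. SEL1L, which did not pass, changed sign after median-of-ratios scaling (0.0012) and without TPA replicate 2 (0.03), with a range of -0.09 to 0.03 with 1 library left out. The members that fell numbered 1 with no filter on low values and 1 at an adjusted p under 0.01, and 1 to 2 with 1 library left out (1 without TPA replicate 1 or control replicate 2), when 4 to 6 rose. The genes of the 7 lists that rose numbered 14 at an adjusted p under 0.01 and 16 to 30 with 1 library left out, against 34; they numbered 18 without TPA replicate 2, 16 without control replicate 1 and 19 without control replicate 2. Over all genes 2726 to 3519 rose and 2744 to 3679 fell with 1 library left out. Leaving out 1 library leaves a group of 1, whose spread is then taken to equal that of the other group. Without either control the prior degrees of freedom became infinite, so each gene there takes the spread that the variance trend gives at its level. A call can then be lost with little change of the fold, as for ERN1 and HERPUD1. The cause of these changes was not tested.

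Same-numbered libraries deviated together from their group means (r = 0.361 over 12159 genes), but 2 pairs cannot show that the numbers pair the samples. With the replicate number as a block 6 members rose and 2 fell, as without it, and 3946 genes rose and 4288 fell, against 3454 and 3621. In the block fit 12 chaperone genes rose (7 without it), 5 genes of the IRE1 arm rose (3 without it) and 5 degradation genes fell (3 without it).

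With 2 libraries per group and an unknown number of reads, small changes such as those of ERN1, HERPUD1 and most chaperone genes lie near what these data can show, and values under 1 RPKM, as for TRIB3 and CHAC1, rest on few reads.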

Other observations

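The 5 plasma cell markers, whose program uses XBP1, differed in direction. TNFRSF17, the gene of the receptor BCMA, had 11.2 ± 0.264 RPKM with TPA and 0.065 ± 0.0608 RPKM in control, IRF4 had 53.1 ± 7.52 RPKM with TPA and 17.2 ± 2.50 RPKM in control, and PRDM1, the gene of the plasma cell factor Blimp-1, had 2.49 ± 0.421 RPKM with TPA and 0.615 ± 0.0891 RPKM in control. IRF4 rose (adjusted p = 9.50e-05), and XBP1 fell to 67.2 ± 7.73 RPKM with TPA, against 116 ± 12.0 RPKM in control. SDC1, the gene of the plasma cell antigen CD138, was at 0.007 RPKM with TPA and 0.027 RPKM in control. PRDM1 and TNFRSF17 reached 1 RPKM in the TPA libraries alone, so their values are given with no test.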
